A study of Mus musculus with 12 samples.

Results

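The cold-inducible RNA-binding proteins considered here are 5 genes, Cirbp, Rbm3, Ybx1, Ybx3 and Carhsp1, measured by array in mouse brown adipose tissue. They were taken by name, with the brightest probe set of each gene that carries its symbol. Cirbp, Ybx1, Ybx3 and Carhsp1 each have 1 probe set, annotated with that symbol alone. They are among the 22180 genes with such a probe set, over which the shares of all genes are given. The probe set of Rbm3 is also annotated with the pseudogene Rbm3-ps, so its signal cannot be assigned to Rbm3 alone and it is called the Rbm3/Rbm3-ps probe set throughout. It is not among the 22180 genes. The tissue came from male wild-type (WT) mice and from male mice with a knockout (KO) of the zinc finger transcription factor gene Zbtb7b, all 10 weeks of age and fed standard chow. They were kept at 22 °C (room temperature) or placed at 4 °C for 4 h (cold), with 3 arrays in each of the 4 groups. The labels do not give the type of knockout allele or the strain. The titles call the arrays of a group biological replicates. Another label field numbers pools, and that field also names liver and another knockout, against the titles. Whether an array is 1 animal is therefore unclear, and the p-values rest on a spread between samples that may be technical in part. The comparison asks whether this tissue shows a temperature-type response in RNA-binding proteins beside the response of its heat shock genes.

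CIRBP and RBM3 are small proteins with an RNA recognition motif and a glycine-rich tail. In many mammalian cells their mRNAs rise under mild hypothermia and fall on warming, and both proteins bind other mRNAs and affect their stability and translation. YBX1, YBX3 and CARHSP1 carry a cold-shock domain, the nucleic acid-binding fold named after the cold-shock proteins of bacteria, and they package mRNAs or change how long these last. Brown fat is the tissue that makes heat in the cold through the uncoupling protein UCP1, so that air temperature and the temperature of the tissue are not the same quantity, and tissue temperature was not measured here.

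Because Cirbp has a described promoter element for mild cold, of the letters TCCCCGCC, the 250 bases before the annotated starts of the members are shown, from RefSeq on GRCm38.p6. The table held 5 such windows for 4 members, namely Cirbp (2 starts), Ybx1, Ybx3 and Carhsp1. The 3 windows that hold the element follow, read 5′ to 3′ on the strand of the gene, with the match to TCCCCGCC or to its reverse complement GGCGGGGA in capitals.
Cirbp, chr10:80167589-80167838, plus strand: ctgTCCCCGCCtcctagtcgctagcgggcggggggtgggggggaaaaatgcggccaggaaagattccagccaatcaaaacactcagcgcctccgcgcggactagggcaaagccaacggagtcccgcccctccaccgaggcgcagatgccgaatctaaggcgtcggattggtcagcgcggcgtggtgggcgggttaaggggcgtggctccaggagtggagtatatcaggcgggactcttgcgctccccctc
Ybx3, chr6:131388451-131388700, minus strand: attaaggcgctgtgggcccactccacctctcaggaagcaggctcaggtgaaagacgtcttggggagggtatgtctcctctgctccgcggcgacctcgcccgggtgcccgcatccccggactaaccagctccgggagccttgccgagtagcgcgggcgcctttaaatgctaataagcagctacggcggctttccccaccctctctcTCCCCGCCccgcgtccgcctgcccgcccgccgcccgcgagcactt
Carhsp1, chr16:8672154-8672403, minus strand: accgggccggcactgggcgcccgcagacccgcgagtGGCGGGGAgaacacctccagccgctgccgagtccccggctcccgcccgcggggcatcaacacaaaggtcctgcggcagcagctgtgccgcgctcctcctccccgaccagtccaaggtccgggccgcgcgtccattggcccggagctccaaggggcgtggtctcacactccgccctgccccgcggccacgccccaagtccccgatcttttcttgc
The match starts 247 bases before the start of Cirbp, 45 before that of Ybx3 and 214 before that of Carhsp1, where it lies on the opposite strand. Searched on both strands, 4.64% of all 32851 windows of this length hold the element. The windows of the members are rich in G and C (65.6% in the Cirbp window shown, 67.2% for Ybx3 and 73.2% for Carhsp1, against a median of 52.4% over all windows), as is the element. None of the 5 member windows held the heat shock element GAANNTTC (6.69% of all windows), the cAMP response element TGACGTCA (1.55%) or the E-box CACGTG (6.02%). As the values below show, the 3 genes with a match did not move the same way in the cold.

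The arrays matched their labels for tissue, and differed among themselves in the signal of skeletal muscle genes. Ucp1 lay between 11.55 and 12.95 on the log2 scale on all 12 arrays, while albumin (Alb) lay between 1.20 and 2.75, although 1 label field names liver and another knockout. The array medians lay between 2.63 and 2.83. Zbtb7b was lower in KO at room temperature (log2 difference -1.11 ± 0.16, SE, adjusted p = 0.00904) and in the cold (-1.30 ± 0.16, adjusted p = 0.00365). The mean of 21 skeletal muscle markers ranged from 3.12 to 8.64 over the arrays. KO cold replicate 3 stood apart, with a mean of 4.47 over 12 neutrophil markers against 2.16 to 2.77 on the other arrays, and with a mean of 7.81 over the heat shock genes against 8.49 to 8.95 on the other cold arrays. In bulk tissue, fewer cells of a type and less RNA per cell cannot be told apart.

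Of the 5 members, 2 were lower in the cold in both genotypes (Cirbp and Carhsp1), 1 was higher (Ybx3, in WT and averaged over genotypes) and 2 did not pass the test (the Rbm3/Rbm3-ps probe set and Ybx1). An adjusted p under 0.05 counts as passed here. In the average over genotypes, 14.3% of all genes were lower and 12.9% were higher in the cold, so a changed gene was common. In WT the shares were 7.98% lower and 9.39% higher, and in KO 10.8% lower and 8.34% higher. The arrays of the cold and room-temperature groups did not overlap for 3 of the 5 members in WT and for 2 of the 5 in KO, against 36.8% and 31.6% of all genes. The median difference of the members in the averaged comparison was -0.02, and that of all genes was -0.01.

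**Figure D1:**
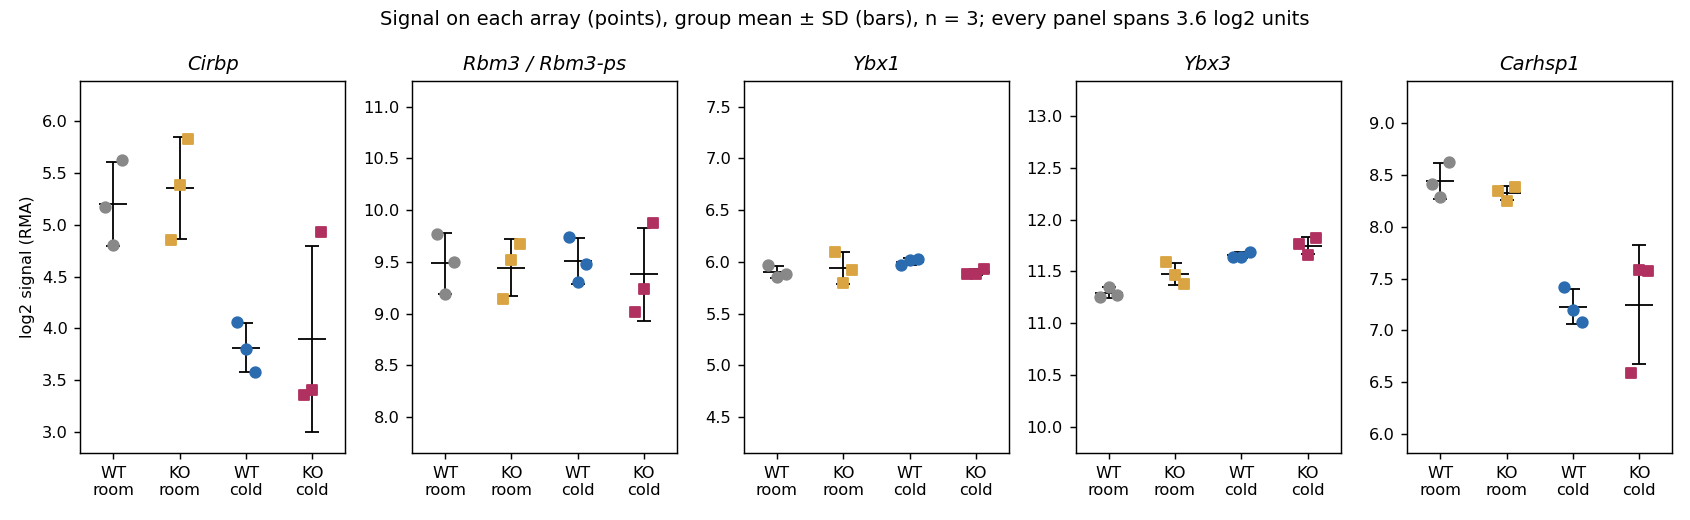
Log2 signal of the 5 probe sets (panels) on each array, by group on the horizontal axis (WT or KO, at room temperature or in the cold), with points for arrays and bars for the mean and SD of 3 arrays; every panel spans the same range. Cirbp and Carhsp1 sit lower in both cold groups, with 1 KO cold array of Cirbp at 4.93, while the Rbm3/Rbm3-ps and Ybx1 points overlap between cold and room temperature.

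Cirbp, which encodes the cold-inducible RNA-binding protein itself, was lower in the cold. In WT its log2 signal was 5.17, 4.81 and 5.62 at room temperature and 4.06, 3.80 and 3.58 in the cold. All 3 cold WT arrays lay below all 3 WT arrays at room temperature. In KO it was 4.85, 5.38 and 5.83 at room temperature and 3.35, 3.40 and 4.93 in the cold. Here the groups overlapped through KO cold replicate 3 (4.93), which lay above the lowest room-temperature array (4.85). The difference was -1.39 ± 0.39 in WT (SE, n = 3 per group, adjusted p = 0.0269), -1.46 ± 0.39 in KO (adjusted p = 0.0189) and -1.42 ± 0.27 averaged over genotypes (95% confidence interval -2.02 to -0.83, adjusted p = 0.00172). It ranked 212 from the lowest of the 22180 averaged differences. The averaged fall was 2.68-fold, with cold signals between 3.35 and 4.93 against array medians between 2.63 and 2.83.

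The Cirbp fall kept its direction in every alternative run, but not its call within a single genotype. The WT difference did not pass without WT room temperature replicate 1 (adjusted p = 0.0655) or 3 (0.0968) or WT cold replicate 2 (0.0731) or 3 (0.0944), where it lay between -1.40 and -1.18. The KO difference did not pass without KO room temperature replicate 2 (0.0547) or 3 (0.0779) or KO cold replicate 1 (0.0744) or 2 (0.0767), nor from the 6 KO arrays alone (0.0761). Without KO cold replicate 3, the array with the high neutrophil markers, the KO difference was -1.98 (adjusted p = 7.56e-04). With the mean of the muscle markers per array as a covariate it was -1.20 ± 0.43 in WT (adjusted p = 0.0836), -1.42 ± 0.38 in KO (adjusted p = 0.0225) and -1.31 ± 0.29 averaged (adjusted p = 0.00592). A minimum mean signal of 5 leaves Cirbp out (mean 4.57). The averaged difference passed in all 20 alternatives that gave a value, with adjusted p-values from 6.47e-05 to 0.00595.

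Carhsp1, a cold-shock domain protein that binds and stabilises mRNAs and whose phosphorylation depends on calcium signals, was also lower in the cold. Its signal at room temperature was 8.42, 8.28 and 8.63 on the WT arrays, against 8.35, 8.25 and 8.38 on the KO arrays. The cold WT arrays read 7.41, 7.19 and 7.08, and the cold KO arrays 6.59, 7.59 and 7.57. Every cold array lay below every room-temperature array, and KO cold replicate 1 was the lowest of all. The fall was 2.32-fold in WT (log2 -1.21 ± 0.23, adjusted p = 0.00309), 2.11-fold in KO (-1.08 ± 0.23, adjusted p = 0.00565) and 2.21-fold averaged over genotypes (-1.15 ± 0.16, 95% confidence interval -1.50 to -0.79, adjusted p = 1.92e-04). It ranked 423 from the lowest. All 3 differences passed in every alternative run, including the muscle covariate (-1.04 ± 0.16 averaged, adjusted p = 5.94e-04).

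The Rbm3/Rbm3-ps probe set, the nearest relative of Cirbp among the members, showed no detectable cold difference in either genotype. Its signal at room temperature was 9.77, 9.19 and 9.50 on the WT arrays, against 9.14, 9.52 and 9.67 on the KO arrays. The cold WT arrays read 9.74, 9.30 and 9.48, and the cold KO arrays 9.02, 9.24 and 9.88. The 4 groups overlapped throughout. The difference was 0.02 ± 0.24 in WT (adjusted p = 0.972), -0.07 ± 0.24 in KO (adjusted p = 0.90) and -0.02 ± 0.17 averaged over genotypes (adjusted p = 0.948). The 95% confidence interval of the averaged value ran from -0.38 to 0.34 on the log2 scale, so a rise or fall within that range remains compatible with these arrays. That interval does not hold the Cirbp difference of -1.42, but the probe sets were not compared by a test.

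**Figure D2:**
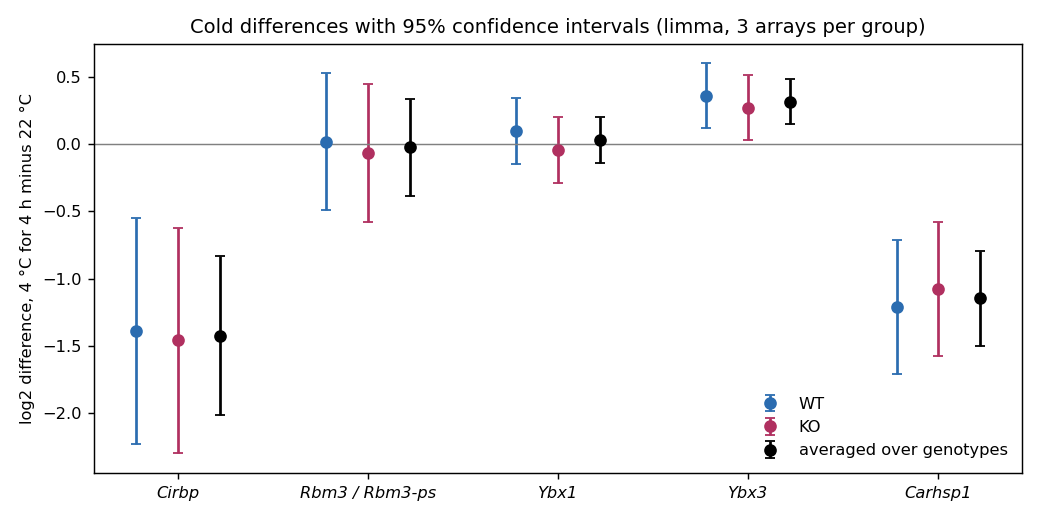
Log2 difference between 4 °C for 4 h and 22 °C (vertical axis) for the 5 probe sets (horizontal axis) in WT, in KO and averaged over both, with 95% confidence intervals from limma that are not adjusted for the number of genes, 3 arrays per group. The Cirbp and Carhsp1 intervals lie below 0, the averaged Ybx3 interval lies above 0 (0.15 to 0.49), and those of the Rbm3/Rbm3-ps probe set and Ybx1 include 0.

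Ybx3, a Y-box protein that binds DNA and mRNA and is abundant in muscle, was slightly higher in the cold. Its signal at room temperature was 11.25, 11.35 and 11.28 on the WT arrays, against 11.59, 11.46 and 11.38 on the KO arrays. The cold WT arrays read 11.64, 11.64 and 11.69, and the cold KO arrays 11.77, 11.66 and 11.83. All 6 cold arrays lay above all 6 room-temperature arrays, by a small margin (11.64 against 11.59). The rise was 1.29-fold in WT (log2 0.36 ± 0.11, adjusted p = 0.0393) and 1.25-fold averaged over genotypes (0.32 ± 0.08, adjusted p = 0.00821). In KO alone the value was 0.27 ± 0.11, which did not pass (adjusted p = 0.111). The difference between genotypes in the cold response was -0.09 ± 0.16 and did not pass either (adjusted p = 0.871).

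Ybx3 also varied with the skeletal muscle markers of the arrays, whose part in its cold difference was not tested beyond the covariate below. After the group means were taken out, its signal correlated with the mean of the 21 muscle markers at r = 0.88 over the 12 arrays and 0.89 without KO cold replicate 3, which is a description of these arrays. The muscle mean read 3.41, 6.55 and 3.12 on the WT arrays at room temperature and 5.29, 7.29 and 7.86 on those in the cold. On the KO arrays it read 8.64, 7.61 and 3.45 at room temperature and 8.40, 4.51 and 8.20 in the cold. No muscle marker passed the test between cold and room temperature in the average (limma, 0 of 21, and 0 at an unadjusted p under 0.05). All 21 were nevertheless higher in the cold, with a list median of 1.55. In WT the median was 2.77, again with all 21 higher (limma, 0 passed, 2 at an unadjusted p under 0.05). In KO it was 0.44, with 18 of 21 higher and 0 passed. With the muscle mean per array as a covariate the averaged Ybx3 difference was 0.27 ± 0.08 (adjusted p = 0.0274) and the WT difference 0.29 ± 0.12 (adjusted p = 0.133). The WT call was lost in 11 further alternatives. They were cyclic loess between arrays (0.31, adjusted p = 0.0724), centring on array medians (0.32, adjusted p = 0.0826) and the replicate number as a block (0.36, adjusted p = 0.0668), the 6 WT arrays alone (adjusted p = 0.0503), and 7 fits without 1 array. Those 7 left out any 1 of the 6 WT arrays (adjusted p from 0.0650 to 0.119) or KO room temperature replicate 2 (0.0528). In KO the value passed under 2 alternatives, a minimum mean signal of 5 (adjusted p = 0.0434) and a trended robust spread (adjusted p = 0.0282). The averaged rise passed in all 21 alternatives (highest adjusted p = 0.0479).

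Ybx1, a widely studied Y-box protein and a core component of stored mRNA particles, showed no detectable cold difference. Its 12 signals lay between 5.80 and 6.10. Room-temperature readings were 5.97, 5.85 and 5.88 for WT, with 6.10, 5.80 and 5.92 for KO. The cold WT arrays read 5.97, 6.01 and 6.03, and the cold KO arrays 5.89, 5.88 and 5.93. The cold and room-temperature arrays overlapped in both genotypes. The cold difference was 0.10 ± 0.11 in WT (adjusted p = 0.629), -0.04 ± 0.11 in KO (adjusted p = 0.871) and 0.03 ± 0.08 averaged over genotypes (95% confidence interval -0.14 to 0.21, adjusted p = 0.836).

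**Figure D3:**
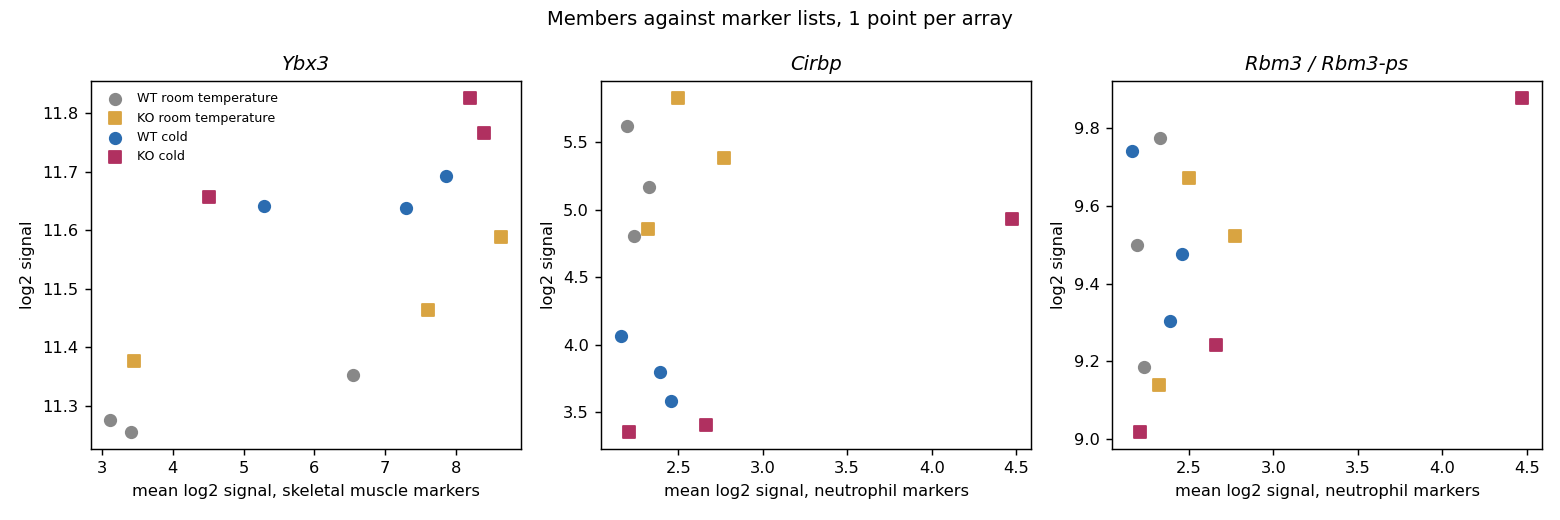
Log2 signal of Ybx3 against the mean log2 signal of 21 skeletal muscle markers, and of Cirbp and the Rbm3/Rbm3-ps probe set against the mean of 12 neutrophil markers, with 1 point per array and the 4 groups by colour and shape. Ybx3 tends to be higher on arrays with more muscle signal (r = 0.88 after the group means are taken out), but not in strict order within every group. The KO cold array at 4.47 on the neutrophil axis has the highest Cirbp value (4.93) and the highest Rbm3/Rbm3-ps value (9.88) of the cold arrays. Without that array the r of Cirbp with the neutrophil mean within groups is 0.03.

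No member passed the test between KO and WT at either temperature (limma, 0 of 5, and 0 of 5 at an unadjusted p under 0.05 in each comparison). Over all genes 0.550% passed at room temperature (122 genes, and 50 without KO room temperature replicate 2) and 0.911% in the cold (202 genes, and 36 without WT cold replicate 1). The 10 differences between KO and WT lay between -0.13 and 0.18 on the log2 scale, with adjusted p-values from 0.588 to 0.984. The widest intervals were those of Cirbp, from -0.69 to 1.00 at room temperature and from -0.76 to 0.92 in the cold. For Ybx1 the interval in the cold ran from -0.35 to 0.14. At room temperature the KO and WT arrays did not overlap for 1 member, Ybx3 (higher in KO by 0.18 ± 0.11, adjusted p = 0.588), against 17.0% of all genes. In the cold they did not overlap for 1 member, Ybx1 (lower in KO by 0.10 ± 0.11, adjusted p = 0.740), against 20.6% of all genes. The muscle means of the WT and KO arrays at room temperature, given above, overlapped. All 21 muscle markers were higher in KO, with a median log2 difference of 2.34, but 0 of 21 passed (limma, 2 at an unadjusted p under 0.05). The markers varied widely within groups, so this test does not show equal muscle signal in the genotypes.

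The cold response of the members did not differ between genotypes by the test. The genotype by temperature interaction passed for 0 of 5 members (limma, and 0 of 5 at an unadjusted p under 0.05), against 0.0271% of all genes (6 genes, and between 3 and 20 when 1 array is left out). Its values were -0.07 ± 0.55 for Cirbp, -0.09 ± 0.33 for the Rbm3/Rbm3-ps probe set, -0.14 ± 0.16 for Ybx1, -0.09 ± 0.16 for Ybx3 and 0.14 ± 0.32 for Carhsp1. The adjusted p-values lay between 0.783 and 0.974. For Cirbp the interval ran from -1.26 to 1.12, so differences between genotypes within that range remain compatible with these arrays. The group means of Cirbp, from highest to lowest, were 5.36 ± 0.49 (SD) in KO and 5.20 ± 0.41 in WT at room temperature, then 3.90 ± 0.90 in KO and 3.81 ± 0.24 in WT in the cold, so that neighbours at the same temperature differed by less than their spread. Carhsp1 had the order 8.44 ± 0.17 in WT and 8.33 ± 0.07 in KO, then 7.25 ± 0.57 in KO and 7.23 ± 0.17 in WT. The Ybx3 means were higher in the cold than at room temperature, and ran from 11.75 ± 0.09 in KO and 11.66 ± 0.03 in WT in the cold to 11.48 ± 0.11 in KO and 11.29 ± 0.05 in WT at room temperature.

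The wider families of these proteins were described from a list of 13 cold-shock domain and glycine-rich RNA recognition motif genes, 11 of which were measured with a symbol of their own. In the average over genotypes 2 of the 11 were higher and 2 lower in the cold, against 12.9% and 14.3% of all genes. The same shares of all genes stand beside the counts of the other lists in that comparison. The 2 lower genes were Carhsp1 and Cirbp, and the higher genes were Ybx3 and Rbmx, an X-linked splicing regulator of the Cirbp-like family (0.52 ± 0.12, adjusted p = 0.00528). The list median was 0.03, near the -0.01 of all genes. The other 7 measured genes did not pass, among them the Y-box gene Ybx2 (-0.23 ± 0.13, adjusted p = 0.217, mean signal 6.18) and Rbmxl1 (0.27 ± 0.14, adjusted p = 0.206). Lin28b lay at a mean signal of 1.36 and Lin28a at 2.38, below the array medians, as is usual for genes of embryonic cells.

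A list of 17 described regulators, partners and targets of Cirbp and Rbm3 had 16 measured genes. In the average 5 of them were higher and 1 lower in the cold (12.9% and 14.3% of all genes). Elavl1, which encodes the mRNA-stabilising protein HuR, was higher (1.16 ± 0.10, adjusted p = 4.42e-06). Trpv4, a warmth-sensing ion channel, was higher as well (1.06 ± 0.15, adjusted p = 1.85e-04), from a mean signal of 4.42 over the 12 arrays. Txn2, the mitochondrial thioredoxin, was higher by 0.52 ± 0.09 (adjusted p = 8.70e-04). Plcg1, a phospholipase in receptor tyrosine kinase signalling, was lower (-0.96 ± 0.10, adjusted p = 2.36e-05). Sp1, a described activator of the Cirbp promoter, stood at -0.16 ± 0.09 (adjusted p = 0.212), and Rtn3, a described target of RBM3, at 0.01 ± 0.08 (adjusted p = 0.966). The list median was 0.11. Between KO and WT in the cold 1 gene of the list passed, against 0.911% of all genes. It was Ntrk2, which encodes the receptor TrkB and was named after its value was seen (-1.19 ± 0.13, adjusted p = 0.00187). Of the receptors for extracellular CIRBP, Tlr4 stood at 0.05 ± 0.09 (adjusted p = 0.767) and Trem1 had a mean signal of 1.55.

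Splicing of Cirbp and of many other transcripts follows temperature through CLK kinases and the SR proteins that they phosphorylate. Of 15 measured genes on that list, 9 were higher and 1 was lower in the cold in the average (12.9% and 14.3% of all genes), with a median of 0.39. The kinase gene Clk4 (0.92 ± 0.09, adjusted p = 1.39e-05) and the splicing regulator Tra2a (1.02 ± 0.12, adjusted p = 5.10e-05) were higher in both genotypes, as were Srsf3 (0.72 ± 0.10 averaged, adjusted p = 1.80e-04) and Srsf6 (0.83 ± 0.13, adjusted p = 3.48e-04). The lower gene, named after its value was seen, was Srsf5 (-0.64 ± 0.17, adjusted p = 0.0156). Clk1, whose product acts as a body-temperature sensor in splicing, stood at -0.02 ± 0.11 (adjusted p = 0.923). The arrays measure the level of a probe set and not the splice form.

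The heat shock genes moved in the opposite direction to Cirbp. Of 26 measured genes of that list, 21 were higher and 0 lower in the cold in the average (limma, 0 lower at an unadjusted p under 0.05). The list median was 1.04, and the shares of all genes were 12.9% higher and 14.3% lower. Among those with the smallest p were the cochaperone gene Bag3 (1.65 ± 0.11, adjusted p = 9.93e-07), Hsp90aa1 (2.40 ± 0.19, adjusted p = 2.90e-06), Hspb1 (1.49 ± 0.14, adjusted p = 1.19e-05) and Hspa4 (1.18 ± 0.11, adjusted p = 1.15e-05). In WT 22 of the 26 were higher (9.39% of all genes) and in KO 15 (8.34% of all genes), or 16 without KO cold replicate 3. The interaction passed for 0 of the 26 genes (limma, 10 lower and 0 higher at an unadjusted p under 0.05), so the response is not shown to differ between genotypes. Of all 22180 genes, 0.0271% passed for the interaction and 2324 had an unadjusted p under 0.05, in either direction. Between KO and WT in the cold 2 of the 26 passed, both lower in KO, against 0.911% of all genes in either direction. The list median was -0.39. At an unadjusted p under 0.05 (limma) 12 were lower and 2 higher in KO, against 3197 of the 22180 genes in either direction. Without KO cold replicate 3, 0 of the 26 passed in that comparison. After the group means were taken out, the r between Cirbp and the mean of the heat shock genes was -0.60 over the 12 arrays and 0.52 over the 11 arrays without KO cold replicate 3, so that array sets its sign and no relation within groups is read from it.

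**Figure D4:**
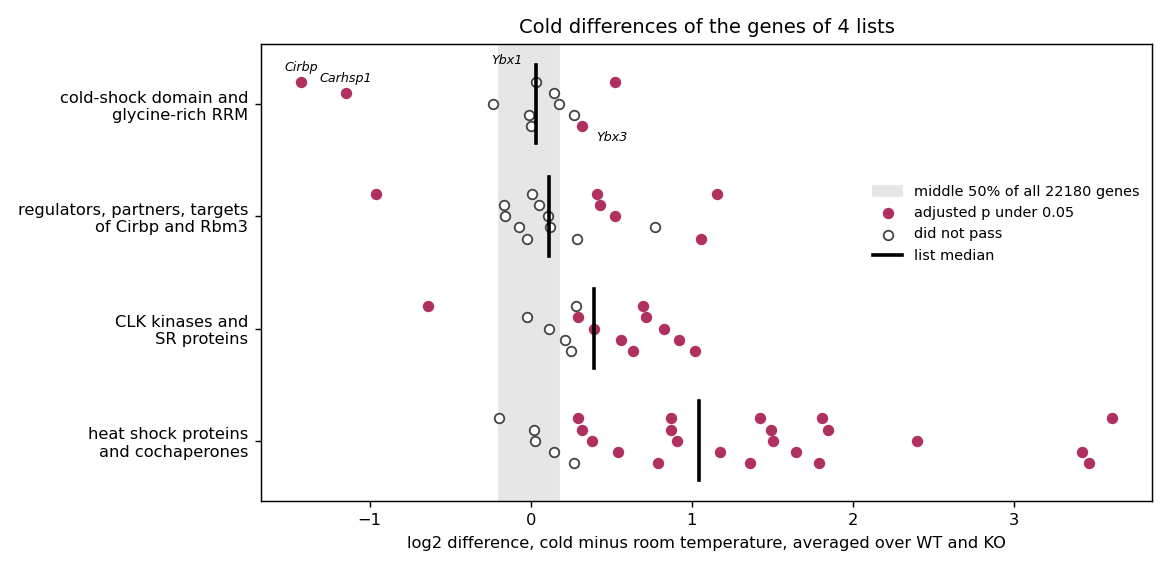
Log2 difference between cold and room temperature, averaged over WT and KO (horizontal axis), for each measured gene of 4 lists (rows), with filled points for an adjusted p under 0.05, black bars for list medians and a grey band for the middle 50% of all genes. Cirbp and Carhsp1 lie farthest to the left, and the heat shock genes reach from -0.20 to 3.61.

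The cold response list of brown adipocytes and the clock list place these values beside the other changes of the same arrays. Of 11 measured genes of the first list 8 were higher and 1 lower in the average (median 0.97), led by the deiodinase gene Dio2 (4.98 ± 0.15), the coactivator gene Ppargc1a (2.66 ± 0.09), the elongase gene Elovl3 (5.15 ± 0.23) and the nuclear receptor gene Nr4a3 (3.11 ± 0.31), each with an adjusted p of 1.41e-05 or less. The lower gene, named after its value was seen, was Nr4a1 (-0.84 ± 0.24, adjusted p = 0.0181). CIRBP is known to bind transcripts of clock genes, and Cirbp mRNA itself cycles with body temperature in other tissues. Of 17 measured clock genes 7 were higher and 7 lower (median -0.11). Arntl (4.71 ± 0.31), Npas2 (2.25 ± 0.15) and Clock (1.31 ± 0.09) were higher and Per3 (-2.52 ± 0.12) was lower, each with an adjusted p of 1.38e-06 or less. The hour at which each group was collected is not given in the sources used here, so cold and time of day cannot be told apart for these genes or for Cirbp.

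For each member, the 3 genes with the highest Pearson r over the 12 arrays were taken from the 8159 or 8160 other named genes whose mean signal reached 5. Because the arrays form a cold and a room-temperature set, r is also given after the group means were taken out. Cirbp was most like the mismatch repair gene Msh3 (r = 0.97, and 0.95 within groups), Bnip3, a mitophagy receptor gene (0.97 and 0.96), and Clpx, a subunit of a mitochondrial protease (0.97 and 0.97). Carhsp1 was most like Acbd4 (0.99 and 0.96), Tyw1 (0.98 and 0.89) and Dgat2, which makes triacylglycerol (0.98 and 0.88). Ybx3 was most like Cap1 (0.96 and 0.81), Pdlim1 (0.95 and 0.58) and Ptpn12 (0.95 and 0.52, the latter 0.32 without KO cold replicate 3). The Rbm3/Rbm3-ps probe set was most like Snu13 (0.85 and 0.92), Cisd2 (0.83 and 0.88) and Dnajc3 (0.83 and 0.88), and Ybx1 most like Shroom4 (0.80 and 0.75), Serpinf1 (0.79 and 0.71) and Fam120b (0.78 and 0.74). The genes most like Cirbp and Carhsp1 were themselves lower in the cold, for example Msh3 by -0.92 ± 0.17 (adjusted p = 0.00111) and Dgat2 by -1.24 ± 0.15 (adjusted p = 6.57e-05).

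Among the members, Cirbp and the Rbm3/Rbm3-ps probe set varied together from array to array although their cold differences were unlike. Their r was 0.70 over the 6 room-temperature arrays, 0.88 over the 6 cold arrays and 0.85 over all 12 once the group means were taken out. Both were highest in the cold on KO cold replicate 3 and lowest on KO cold replicate 1. Without KO cold replicate 3 it was 0.70 over the 11 arrays. Cirbp and Carhsp1, which both fell in the cold, had an r of 0.54 within groups, and 0.34 without that array. Cirbp and Ybx3 had an r of -0.08 within groups, and -0.81 without it. Within groups, the r of Cirbp with the neutrophil marker mean was 0.77 over 12 arrays and 0.03 without KO cold replicate 3, so that array carries it. With brown adipocytes it was -0.28 over 12 arrays and -0.81 without that array, and with skeletal muscle -0.29 and -0.82. The brown adipocyte list shares Ucp1, Cidea, Ppargc1a and Elovl3 with the cold response list, so its mean does not measure cell number alone. For endothelium the values were 0.66 and 0.71, and for B cells 0.58 and 0.82. The B cell markers were dim. Their mean per array lay between 2.01 and 2.45, below the array medians of 2.63 to 2.83. The r with erythroid cells was 0.62 and 0.27, and with macrophages 0.59 and 0.31. Only 2 of the 8 erythroid markers were measured, Slc4a1 (mean signal 3.92) and Epb42 (mean signal 1.90). The part of these cell types in the array-to-array variation of Cirbp was not tested.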

How the data were processed

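Brown adipose tissue RNA of 12 samples was measured on whole-transcript arrays. The deposited values are log2 signals per probe set; oligo, RMA and limma are named, without versions, in the submitters' processing notes, so that background correction, scaling between arrays and probe summary were done by the authors. Array parameters and genome build are not given in the sources used here. Groups and replicate numbers come from the titles.

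Of 41345 probe sets, 23521 carried 1 gene symbol, 1814 several and 16010 none; the brightest probe set of each of 22180 genes was kept and dim genes were not removed. limma 3.58.1 (R 4.3.3) estimated the 4 group means together from the 12 arrays, with eBayes for the spread. Tests were two-sided and adjusted by Benjamini-Hochberg over all genes of a comparison. The Rbm3/Rbm3-ps probe set was fitted in the same way in a table of 23994 rows that adds the probe sets with several symbols, a choice made after its annotation was seen. Precision is limited by the number of arrays, 3 per group.

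The members and lists were chosen with earlier results of these data known. The text names the members, Zbtb7b, Ucp1, Alb, up to 4 genes of smallest p per list in the averaged cold comparison, and the 3 genes most like each member; Srsf5, Nr4a1, Ntrk2, Ybx2, Rbmxl1, Lin28a, Lin28b, Sp1, Rtn3, Tlr4, Trem1 and Clk1 were added after values were seen. Same-numbered arrays did not deviate together (6 of 18 pairs with r over 0.1), so numbers were not taken as pairs. Cell type lists for brown adipocytes (means per array 9.69 to 10.57), macrophages (5.57 to 7.02), T cells (2.75 to 3.69), B cells (2.01 to 2.45), endothelium (7.95 to 8.43), erythroid cells (2.34 to 3.39) and hepatocytes (3.24 to 3.48) were also measured. Other settings were every probe set alone, the mean of probe sets, a minimum mean signal of 5, cyclic loess, median centring, trended robust spread, array weights, a replicate block, a muscle covariate, the 6 arrays of a comparison alone and leaving out each array. Correlations and list counts without KO cold replicate 3 were added after seeing the data.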

Additional observations from a re-analysis of the deposited data

How the results depend on the processing

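The cold differences of Carhsp1 kept their direction and passed in all 22 alternatives in WT, all 22 in KO and all 21 averaged over genotypes, and the averaged differences of Cirbp (20 of 20 that gave a value) and Ybx3 (21 of 21) did the same. Leaving out 1 array gave -1.58 to -1.18 for Cirbp in WT, -1.98 to -1.19 in KO, and 0.34 to 0.39 for Ybx3 in WT, with the calls lost as named in the report. Cirbp in WT was -1.20 with the muscle covariate and Cirbp in KO -1.46 from 6 arrays alone, both not passed. Ybx3 in WT did not pass with cyclic loess (0.31), median centring (0.32), the muscle covariate (0.29), 6 arrays alone (0.36) or the replicate block (0.36, adjusted p = 0.0668); in KO its 0.27 passed with a minimum mean signal of 5 and with trended robust spread. Same-numbered arrays gave r from -0.54 to 0.45 (6 of 18 pairs over 0.1) and other pairs -0.56 to 0.63; the replicate block moved the counts of genes passed from 202 to 140 (KO against WT in the cold) and from 122 to 91 (room temperature).

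Of differences that passed in no setting, several changed sign. For Cirbp these were KO against WT in the cold with array weights (-0.050) and the interaction with cyclic loess (0.0092); leaving out 1 array gave -0.081 to 0.41 (KO against WT, room temperature), -0.44 to 0.35 (cold) and -0.59 to 0.20 (interaction). For Rbm3/Rbm3-ps they were WT cold with cyclic loess (-0.056) and median centring (-0.026), and, with the muscle covariate, averaged cold (0.071) and KO against WT at room temperature (0.10); leaving out 1 array gave -0.13 to 0.16 (WT cold), -0.31 to 0.12 (KO cold), -0.15 to 0.068 (averaged), -0.19 to 0.11 (KO against WT, room temperature), -0.38 to 0.054 (cold) and -0.33 to 0.10 (interaction). For Ybx1 it was averaged cold with median centring (-0.052), and leaving out 1 array gave -0.11 to 0.041 (KO cold), -0.0040 to 0.072 (averaged) and -0.042 to 0.11 (KO against WT, room temperature). For Carhsp1 they were, with the muscle covariate, KO against WT at room temperature (0.042) and the interaction (-0.0060), and with median centring KO against WT in the cold (-0.013); leaving out 1 array gave -0.15 to 0.35 (KO against WT, cold) and -0.030 to 0.47 (interaction). Median centring moved the median of all genes to -0.06 (WT cold), -0.12 (KO cold) and -0.09 (averaged).

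Counts of all genes passed moved by over 1.5 times from 6 arrays alone (2737 for KO cold, 37 and 32 for KO against WT at room temperature and in the cold), for KO against WT in the cold with a minimum mean signal of 5 (397) and array weights (307), and for the interaction with the mean of probe sets (3), that minimum (26), median centring (17), trended robust spread (19), array weights (22) and the muscle covariate (12). Leaving out 1 array gave 50 to 164 (KO against WT, room temperature), 36 to 289 (cold) and 3 to 20 (interaction). The causes of these changes were not tested.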
